A study of Homo sapiens with 26 samples.

Results

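Chromosome 15 of the human leukaemia line KBM7 was described outside a segment for which the deposited table holds no value, as mapped by single-cell DamID with unfused Dam. The members are the 100 kb bins of chromosome 15 (hg19) that have values and lie above 0 in at least 1 of 26 cells. There are 509 of them, of 26331 such bins in the genome. Chromosome 15 has 1026 bins in the table: 506 had no value, 11 were 0 in every cell, and 509 were used. The segment without values spans 289 bins, from 61000001 to 89900000, and the first used bin starts at 20000001, beyond the short arm and centromere.

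All 26 samples are single cells of clone 5-8, a line from 1 clone, labelled haploid (1N) and Dam only, and they form 1 group. Dam activity was induced with 0.5 nM Shield1 for 15 h, and cells among the smallest 2% by scatter that carried both Fucci cell cycle markers were sorted. The series title names lamin B1, whereas the label of each sample gives Dam only, which is taken here as what was expressed. Cells of 1 clone are not replicate cultures, so no p-value was computed. Each SD is a spread between cells, and the number of cells on each side of a comparison is given.

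Dam is a bacterial methyltransferase that marks the adenine of GATC. Unfused Dam marks chromatin it can reach, and is commonly used as a measure of accessibility. Human chromosome 15 is acrocentric, with a short arm of repeats and ribosomal genes, and its long arm begins with segmental duplications. The imprinted interval of 15q11-q13 follows, where a set of genes around SNRPN is active on the paternal copy and UBE3A is expressed from the maternal copy in neurons. Loss of the paternal or maternal contribution there causes Prader-Willi or Angelman syndrome. A haploid cell holds a single parental copy of this interval, and the labels do not say which. A part of chromosome 15 is known to be present in excess in KBM7, and the level of the segment without values was not analysed here.

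Promoters of 4 loci are shown because the measured mark sits on GATC. SNRPN and UBE3A are the poles of the imprinted interval. B2M had the highest mean signal of the broadly expressed landmark loci described further on, and WDR72 the lowest of the tissue-restricted ones. Each sequence is from RefSeq (GRCh38.p14), covers 250 bases before to 50 after the gene's start on the gene's own strand, and has GATC in capitals.
SNRPN (plus strand): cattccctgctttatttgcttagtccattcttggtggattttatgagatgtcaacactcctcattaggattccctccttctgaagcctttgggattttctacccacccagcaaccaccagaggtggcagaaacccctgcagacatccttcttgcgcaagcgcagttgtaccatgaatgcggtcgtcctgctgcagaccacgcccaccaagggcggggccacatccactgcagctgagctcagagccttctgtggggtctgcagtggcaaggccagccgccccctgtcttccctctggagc
UBE3A (minus strand): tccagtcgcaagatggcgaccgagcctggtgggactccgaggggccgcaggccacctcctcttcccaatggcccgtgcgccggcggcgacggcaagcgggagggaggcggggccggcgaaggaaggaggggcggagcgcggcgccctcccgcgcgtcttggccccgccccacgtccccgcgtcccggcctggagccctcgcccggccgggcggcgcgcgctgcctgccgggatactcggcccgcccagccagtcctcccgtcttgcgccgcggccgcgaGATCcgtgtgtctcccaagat
B2M (plus strand): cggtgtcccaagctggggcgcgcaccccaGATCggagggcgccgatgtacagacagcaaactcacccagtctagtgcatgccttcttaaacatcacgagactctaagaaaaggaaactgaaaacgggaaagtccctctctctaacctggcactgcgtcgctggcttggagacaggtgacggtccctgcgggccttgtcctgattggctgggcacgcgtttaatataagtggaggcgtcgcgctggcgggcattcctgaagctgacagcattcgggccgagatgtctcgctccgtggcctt
WDR72 (minus strand): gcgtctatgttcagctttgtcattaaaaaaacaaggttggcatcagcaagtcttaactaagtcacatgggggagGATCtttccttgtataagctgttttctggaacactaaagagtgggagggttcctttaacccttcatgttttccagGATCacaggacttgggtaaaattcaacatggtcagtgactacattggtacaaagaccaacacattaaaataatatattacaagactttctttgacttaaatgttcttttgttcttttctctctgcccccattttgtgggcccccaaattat
The motif GATC, which reads the same on both strands, occurs 2 times in the WDR72 promoter, 1 time each in those of UBE3A and B2M, and is not in the SNRPN window. It was found in 18 of the 46 landmark promoters that had a sequence (39.1%), in 485 of 1225 promoters of chromosome 15 (39.6%) and in 14655 of 35116 promoters of all chromosomes (41.7%). A bin of 100 kb holds far more sequence than a promoter. The deposited values are relative to an expectation per bin, and the sources used here do not say how it treats GATC. The part of GATC content in the levels was not tested.

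The values are ratios of observed over expected signal. Whole counts behind them were recovered. They totalled between 20182 in cell 21 and 178941 in cell 1 over the genome, with a median of 42448.5, and between 249 in cell 22 and 3883 in cell 1 on chromosome 15, with a median of 823.5. Cell 22 resembled the other cells least. A low recovered expectation (under 0.5 times the median bin) marked 38 of the 509 bins (7.47%), against 3.43% of used bins in the genome, and 32 of the 38 lay in 15q11-q13. A single count in such a bin gives a very high ratio, so values there are also given without these bins.

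Over its used bins, chromosome 15 was close to the genome's mean. Its mean ratio over that of all other autosomes was 1.06 ± 0.159 (SD, n = 26 cells). Cell 22 was lowest at 0.678, the median cell stood at 1.10 and cell 19 was highest at 1.32. It was above 1 in 17 cells and below in 9, so it was on neither side by the rule of at least 21 of 26 cells. By mean level it was ninth of the 22 chromosomes that have values, X included. The other acrocentric chromosomes next to it in number are 13 and 14. They have 956 and 877 used bins, of which 1.36% and 1.71% had a low expectation. Chromosome 15 enters with 509 used bins (7.47% of low expectation) and without the segment that has no values. Within cells, chromosome 15 was 1.42-fold over chromosome 13, with a mean log2 ratio of 0.50 ± 0.27 and a higher value in 24 of 26 cells. Over chromosome 14 the log2 ratio was 0.11 ± 0.32, with a higher value in 20 cells, which does not reach 21.

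High and low bands alternated along the chromosome. In what follows a level is the mean ratio over the used bins of a region divided by the mean over all used bins of the same cell. Bands 15q15, 15q21.2 and 15q26.1 were high, and the imprinted interval, 15q14, 15q21.1 and 15q26.2 were low, each in at least 21 of 26 cells. The remaining bands with few bins of low expectation lay on neither side.

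**Figure D1:**
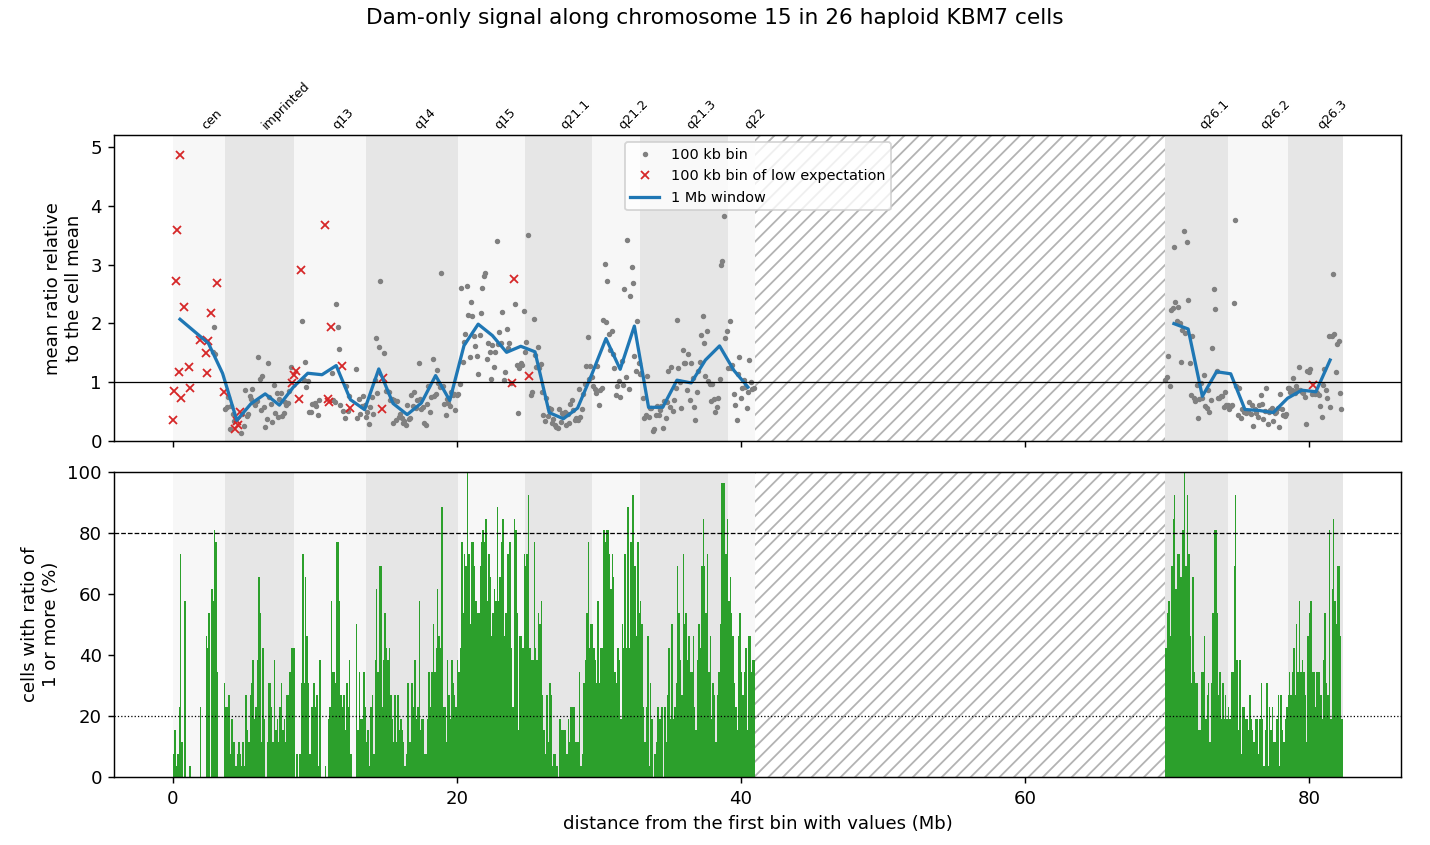
Signal along chromosome 15 in 26 cells. The x axis is the distance from the first bin with values in Mb, and the hatched stretch is the segment without values. Above, the mean ratio relative to the cell mean per 100 kb bin (grey points, red crosses for bins of low expectation) and per 1 Mb window (blue line). Below, the percent of cells with a ratio of 1 or more, with lines at 80% and 20%. High stretches at 15q15, 15q21.2 and 15q26.1 stand between low ones.

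The block that holds the imprinted interval was described first. Over its 110 used bins, of which 48 lie in that interval, 15q11-q13 had a level of 0.984 ± 0.312 (SD, n = 26). The lowest cell was at 0.552, the median at 0.937 and the highest at 1.74, with 17 cells below 1 and 9 above. Its level depends on the bins of low expectation: without them it was 0.787 ± 0.137 and below 1 in 25 cells. These bins lay mainly on the centromere side of the imprinted interval, in the duplicated sequence, where 17 of 20 used bins had a low expectation. That side had a level of 1.77 ± 1.32 over only 499 counts in all cells, with cells from 0.423 to 6.16. The highest value, in cell 19, owed much to the bin at 20200001 to 20300000, where 1 count gave a ratio of 70.8 times the cell mean. Without bins of low expectation the centromere side stood at 1.66 ± 0.940, above 1 in 19 cells, on 3 bins.

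The imprinted interval itself, taken as 23700001 to 28500000, was among the lowest parts of the chromosome. Its level was 0.629 ± 0.295 (SD, n = 26, 1691 counts over 48 bins), below 1 in 25 of 26 cells. Cell 13 was lowest at 0.329, the median was 0.598, and 25 cells lay at or under 0.793. Cell 22 alone was above 1, at 1.95. In that cell 28 of the 48 bins held counts, 68 in all. Without cell 22 the level was 0.576 ± 0.123. Set against the rest of chromosome 15 within each cell, the interval had a log2 ratio of -0.89 ± 0.66, or 0.538-fold, and was lower in 25 of 26 cells. Without cell 22 the log2 ratio was -1.0 ± 0.37.

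Not one of its 48 bins was shared by most cells. A bin is called positive in a cell at a deposited ratio of 1 or more and shared when positive in at least 80% of the cells. In the genome 5.61% of used bins were shared. Bins positive in at most 20% of the cells made up 25 of the 48 bins of the interval (52.1%), against 33.5% of used bins in the genome. The longest such run in 15q11-q13 had 11 bins, at 24000001 to 25100000, with a level of 0.342 ± 0.323 and 145 counts. It was above 1 in cell 22 only, at 1.62, and 4 of its bins had a low expectation. This run lies between the NDN locus and the SNRPN locus and ends on the first bin of SNRPN.

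Loci of named genes were read through landmark bins, with hg19 positions from textbook knowledge. The bins overlapping a gene make up its locus, so a value describes 100 kb stretches and not the gene alone. All 50 landmark genes were found on chromosome 15 of the RefSeq table, in the same order. Of the 6 imprinted genes, 5 had a mean locus level below 1, as did the median bin of the genome, at 0.793. The median over the 10 bins of these loci was 0.738. Of these bins 2 (20%) lay below the cell mean in at least 21 cells, against 31.4% of all used bins. Above it in at least 21 cells were 0, against 6.09%. MKRN3 and MAGEL2, paternally expressed genes that encode ubiquitin ligase components, share a bin with a level of 0.578 ± 0.735 from 34 counts. Cells there ran from 0 to 3.03 with a median of 0.519. NDN, a paternally expressed growth suppressor, was at 0.756 ± 0.930 (31 counts).

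SNRPN, whose transcript encodes a splicing protein and whose upstream region holds the imprinting centre, had a level of 0.514 ± 0.422 (SD, n = 26, 73 counts over 3 bins). Cells ran from 0 to 1.83, in cell 22, around a median of 0.435, and 23 were below 1. Without cell 22 the level was 0.461 ± 0.332. UBE3A, a ubiquitin ligase, was at 0.806 ± 0.550 (104 counts, 17 cells below 1). ATP10A, a phospholipid flippase gene next to UBE3A, was at 1.06 ± 0.553, with 15 cells above 1. Counts per locus are few. In summed counts, SNRPN was at 0.468 times the genome's mean, with an exact 95% Poisson interval from 0.367 to 0.588. UBE3A was at 0.916 (0.749 to 1.11) and ATP10A at 1.15 (1.01 to 1.31). The interval of NDN and that of the bin of MKRN3 and MAGEL2 overlapped the one of SNRPN. Such intervals leave out the spread between cells, so no full order of the 6 genes is given. Over the 10 bins of the list, the level was 0.766 ± 0.154 and below 1 in 24 cells. In summed counts this was 0.826 times the genome's mean, with an exact 95% Poisson interval from 0.753 to 0.904, which covers counting error only.

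The GABA-A receptor subunit genes GABRA5 and GABRG3, active mainly in neurons, lie in the telomeric part of the interval. GABRG3 had a level of 0.610 ± 0.528 (SD, n = 26, 229 counts over 6 bins), from 0 to 2.60 around a median of 0.512, and was below 1 in 22 cells. GABRA5 was at 0.957 ± 0.977 (53 counts in 1 bin), with 16 cells below 1. Cell 22 was the highest cell at both loci, and without it the levels were 0.531 ± 0.345 for GABRG3 and 0.863 ± 0.869 for GABRA5. Further on, OCA2, a pigmentation gene, stood at 0.840 ± 0.651, also with cell 22 highest, at 2.64. CHRNA7, a nicotinic receptor subunit gene in 15q13, was at 0.644 ± 0.640 (19 cells below 1). The HERC2 locus (1.12 ± 1.08) had a low expectation in 2 of its 3 bins, and cell 22 was highest there, at 4.08. Without bins of low expectation it was at 1.27 ± 1.81. Its bin of adequate expectation, at 28300001 to 28400000, is also part of the OCA2 locus, so these 2 loci are not independent.

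The part of 15q13 beyond the interval had a level of 1.01 ± 0.541, with 13 cells on each side of 1. Cell 6 stood at 3.18, where 1 count in the bin at 30700001 to 30800000 gave a ratio of 95.4 times the cell mean. That bin's recovered expectation was 0.633% of the median bin. Without bins of low expectation cell 6 was at 1.18 and the mean was 0.881 ± 0.242, below 1 in 18 cells.

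**Figure D2:**
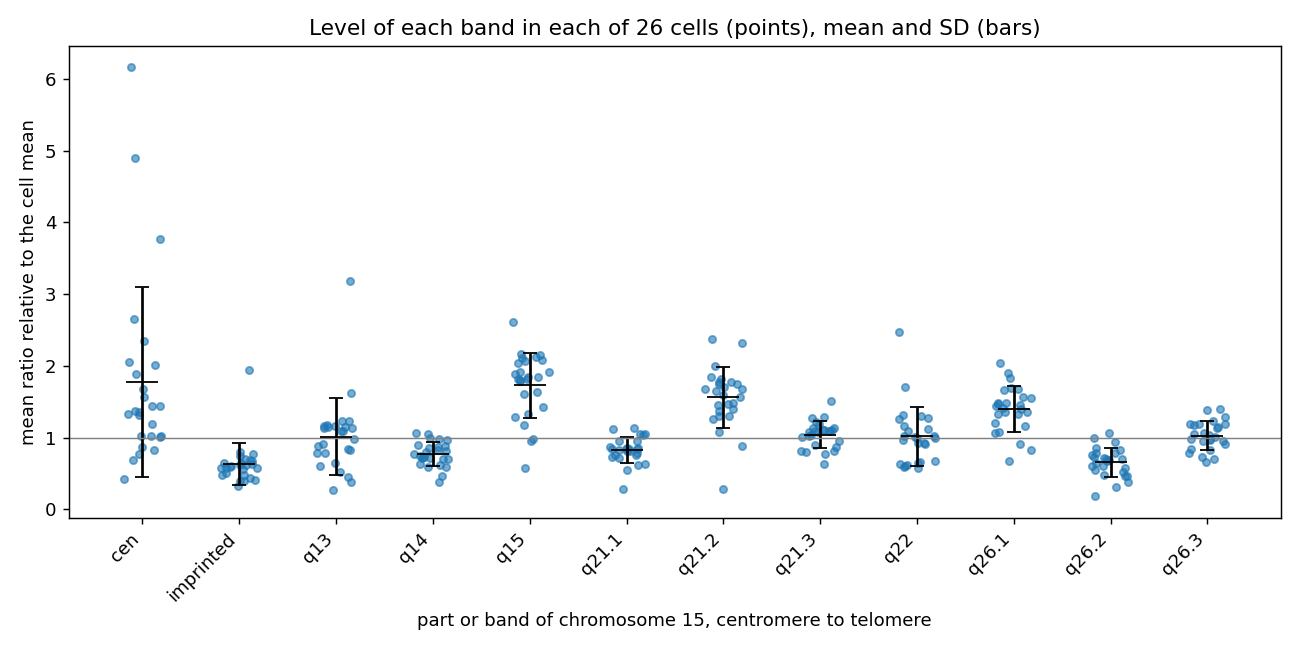
Level of each band of chromosome 15 in each of 26 cells (points), with mean and SD (bars). The y axis is the mean ratio relative to the cell mean, and the x axis runs from centromere to telomere ("cen" is the centromere side of the imprinted interval, "q13" the part of 15q13 beyond it). 15q15, 15q21.2 and 15q26.1 lie above 1 in 23, 24 and 23 cells, and cell 22 stands apart at 1.95 in the imprinted interval.

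The middle block, 15q14-q22, was high as a whole but not throughout. Over 274 bins its level was 1.12 ± 0.206 (SD, n = 26), with a lowest cell of 0.474 (cell 22), a median of 1.16 and a highest of 1.48 (cell 8), and 22 cells above 1. Relative to 15q11-q13 its log2 ratio was 0.22 ± 0.58, higher in 19 cells. Without bins of low expectation that ratio was 0.51 ± 0.44 and higher in 25 cells.

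Its first band, 15q14, was low: 0.772 ± 0.170 over 65 bins and 3042 counts, from 0.383 in cell 3 to 1.06 in cell 8, with a median of 0.757 and 24 cells below 1. RYR3, a calcium release channel of muscle and brain at its start, stood at 0.499 ± 0.278 and below 1 in all 26 cells. The bins at 35900001 to 36500000 formed a run of 6 that were positive in at most 20% of cells, at 0.360 ± 0.219. A second run of 6, at 37400001 to 38000000, follows directly on MEIS2, a homeobox gene of development, and averaged 0.508 ± 0.464. Cell 22 stood apart in it at 2.25, and without that cell the run was at 0.438 ± 0.306. AQR, a splicing helicase gene, is the one broadly expressed landmark with a mean below 1, at 0.841 ± 0.464, and it lies in this band. The single shared bin of 15q14 lay near its far end, at 38900001 to 39000000, with 2.86 ± 2.53 and 23 positive cells. Cell 26 stood apart in that bin at 13.1, and without that cell the mean was 2.45. The bin follows directly on the RASGRP1 locus, a Ras activator of lymphocytes, which was itself at 0.956 ± 0.800.

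The next band, 15q15, was the highest of the chromosome apart from the duplicated centromere side. Its level was 1.73 ± 0.456 (SD, n = 26) over 47 bins and 4566 counts. Cell 22 was lowest at 0.580, the median was 1.83 and cell 8 was highest at 2.60, with 23 cells above 1. Within cells it was 2.20-fold over 15q14, with a log2 ratio of 1.14 ± 0.41 that was above 0 in all 26 cells. Over the rest of chromosome 15 the log2 ratio was 0.74 ± 0.37, above 0 in 25 cells, cell 22 being the exception at -0.27. Of its 47 bins 7 were shared (14.9%), against 5.61% of used bins in the genome. Only 1 (2.13%) was positive in at most 20% of cells, against 33.5%.

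Each landmark described in 15q15 was above the cell mean on average. MGA, a partner of the transcription factor MAX, reached 2.84 ± 1.47 and was above 1 in 23 cells, with a lowest cell of 0.314 and a median of 2.74. BUB1B, a kinase of the spindle checkpoint, INO80, a chromatin remodeller, and TP53BP1, a DNA damage response protein, had means of 1.52 ± 0.990, 1.61 ± 1.03 and 1.41 ± 0.690, with 16, 17 and 17 cells above 1. CAPN3, a calpain of skeletal muscle, lies in the same band and was at 1.38 ± 0.837 with 18 cells above 1. The bin at 40700001 to 40800000 was positive in all 26 cells, at 2.63 ± 1.43, with its lowest cell at 1.14. It is 1 of only 2 bins on the chromosome that were positive in every cell.

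Band 15q21.1 held a step inside it. As a whole it was low, at 0.828 ± 0.184 (47 bins, 21 cells below 1), and within cells 15q15 was 2.06-fold over it, in all 26 cells. Its first complete 1 Mb window, from 45000001, continued the high stretch at 1.52 ± 0.589, above 1 in 21 cells. The windows from 46000001 and 47000001 were at 0.484 ± 0.197 and 0.379 ± 0.218, below 1 in all 26 cells.

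Both sides of this step carry landmarks. B2M, the light chain of MHC class I molecules, had the highest mean of the broadly expressed loci, 3.50 ± 2.64 (119 counts in 1 bin). Its lowest cell was 0, the median 2.44 and the highest 11.8 (cell 23), and 24 cells were above 1. On the low side, the 13 bins at 46700001 to 48000000 were the longest run of bins positive in at most 20% of cells on the chromosome. They averaged 0.364 ± 0.173 over 318 counts, and the highest cell reached only 0.613. SLC24A5, a pigment cell transporter, was at 0.386 ± 0.564 from 27 counts, with a median of 0. FBN1, the fibrillin of connective tissue, was at 0.584 ± 0.381, below 1 in 21 cells.

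Band 15q21.2 was high again. Its level was 1.56 ± 0.421 (34 bins, 3087 counts), from 0.283 in cell 22 to 2.38 in cell 13, with a median of 1.62 and 24 cells above 1. The log2 ratio over 15q21.1 was 0.88 ± 0.41, above 0 in 25 cells. Against 15q15 it was -0.17 ± 0.38, lower in 19 cells, which leaves these 2 bands without a side. Shared bins made up 6 of 34 (17.6%), against 5.61% of used bins in the genome. The strongest was at 52000001 to 52100000, at 3.43 ± 2.24, positive in 23 cells. USP8, a deubiquitinase gene, stood at 1.81 ± 1.43, and CYP19A1, the aromatase of steroid synthesis, at 1.06 ± 1.11 with 15 cells below 1.

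The last bands before the segment without values were mixed. 15q21.3 averaged 1.04 ± 0.189 (18 cells above 1), with the windows from 53000001 and 54000001 at 0.572 ± 0.249 and 0.575 ± 0.248 and the window from 58000001 at 1.62 ± 0.450. WDR72, a gene of enamel formation, had the lowest landmark value of the chromosome, 0.276 ± 0.255 (50 counts over 3 bins), with a highest cell of 0.688. UNC13C, a long synaptic gene, was at 0.609 ± 0.291 (23 cells below 1), and ALDH1A2, a retinoic acid synthesis enzyme, at 0.539 ± 0.352 (23 cells below 1). TCF12, a helix-loop-helix transcription factor, was at 1.67 ± 0.531 with 22 cells above 1.

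The only unbroken run of 3 shared bins on the chromosome was in 15q21.3, at 58600001 to 58900000. It averaged 3.30 ± 1.12 (SD, n = 26, 621 counts), with a lowest cell of 1.85, a median of 3.08 and a highest of 6.60, and each of its bins was positive in 25 cells. Its last bin had the highest mean of all bins of adequate expectation, 3.83 ± 1.89. LIPC, the hepatic lipase gene, lies over the last 2 bins of this run, and its locus was at 3.45 ± 1.45, above 1 in all 26 cells. ADAM10, a broadly expressed membrane protease gene, shares that last bin with LIPC and was at 2.48 ± 0.884, so the bins do not separate these genes. 15q22 was measured over its first 19 bins only, at 1.02 ± 0.409, with 13 cells on each side.

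The 2 flanks of the segment without values lay at different mean levels. The first 1 Mb after it, from 89900001, had a level of 1.90 ± 0.684, with a lowest cell of 0.561, a median of 2.01, a highest of 3.06 and 22 cells above 1. The last 1 Mb before it, up to 61000000, was at 0.916 ± 0.440, from 0.333 to 2.57 with a median of 0.855, and 18 cells were below 1. What lies between was not analysed here.

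The distal end, 15q26, began high, dipped and recovered. Over 125 bins its level was 1.03 ± 0.188 (SD, n = 26), from 0.503 in cell 22 to 1.48 in cell 21, with a median of 1.07 and 16 cells above 1. Against 15q11-q13 its log2 ratio was 0.11 ± 0.59, higher in 18 cells, and 0.40 ± 0.46, higher in 24, without bins of low expectation. Against 15q14-q22 it was -0.12 ± 0.16, lower in 20 cells.

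15q26.1, measured from 89900001, averaged 1.40 ± 0.321 (44 bins, 3616 counts), with a lowest cell of 0.667, a median of 1.42, a highest of 2.04 and 23 cells above 1. Shared bins made up 7 of its 44 (15.9%), against 5.61% of used bins in the genome. The bin at 91200001 to 91300000, where the BLM locus begins, was the other bin positive in all 26 cells, at 3.57 ± 1.88, with a lowest cell of 1.07. BLM, the helicase lost in Bloom syndrome, had a locus level of 2.70 ± 1.26 and was above 1 in 24 cells. FURIN, a protease that activates precursor proteins, and FES, a tyrosine kinase of myeloid cells, share a bin at 3.38 ± 2.25 (24 cells above 1). IDH2, a mitochondrial dehydrogenase, was at 2.36 ± 2.29 (17 cells above 1), CRTC3, a CREB coactivator, at 1.62 ± 0.708 (22 cells) and CHD2, a chromatin remodeller, at 1.72 ± 0.886 (21 cells). SV2B and ST8SIA2, genes of synaptic vesicles and of neural polysialic acid, were at 1.30 ± 0.908 and 0.675 ± 0.319, with 15 and 23 cells below 1.

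15q26.2 was the low part of the distal end. It averaged 0.654 ± 0.205 (42 bins, 1852 counts), from 0.185 in cell 22 to 1.07 in cell 21, with a median of 0.680 and 25 cells below 1. Within cells it was 0.454-fold of 15q26.1, with a log2 ratio of -1.14 ± 0.48 that was below 0 in all 26 cells. Bins positive in at most 20% of cells made up 25 of the 42 (59.5%), the highest share of any band here, against 33.5% in the genome. Among them were 7 in a row at 95900001 to 96600000, at 0.479 ± 0.400. NR2F2, a nuclear receptor of development, was at 0.375 ± 0.411 from 32 counts, below 1 in 24 cells.

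The MCTP2 locus, a calcium-binding membrane protein gene, held bins well above the mean of the band. At 94800001 to 94900000 the level was 3.76 ± 1.83 (224 counts) and 24 cells were positive. Cells ran from 0 to 7.67 with a median of 3.65, and this was the second highest bin of adequate expectation on the chromosome. The bin before it, from 94700001, was at 2.35 ± 2.28 and positive in 18 cells. The whole MCTP2 locus was at 1.87 ± 0.782, above 1 in 23 cells. No other bin of 15q26.2 was shared.

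The terminal band, 15q26.3, returned to 1.03 ± 0.201 (14 cells above 1) and was 1.64-fold over 15q26.2, higher in 25 cells. Its shared bins were those at 101400001 to 101500000 (1.79 ± 1.07) and at 101700001 to 101800000 (2.85 ± 2.26). IGF1R, the receptor of insulin-like growth factor, stood at 0.955 ± 0.411, MEF2A, a transcription factor of muscle and blood cells, at 1.01 ± 0.604, and ADAMTS17, a matrix protease, at 0.757 ± 0.363 with 20 cells below 1. The terminal 5 Mb together were lower than the rest of the distal end, at 0.908 ± 0.173 against 1.11 ± 0.258, with a log2 ratio of -0.28 ± 0.38 that was below 0 in 21 cells. With summed counts this held in 18 cells.

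Grouped by the kind of gene, landmark loci differed in level. The 32 bins of the 16 broadly expressed genes had a level of 1.93 ± 0.420 (SD, n = 26), with a lowest cell of 1.02, a median of 1.96 and a highest of 2.60, so all 26 cells were above 1. The 48 bins of the 17 tissue-restricted genes were at 0.965 ± 0.213, from 0.401 in cell 22 to 1.50 in cell 26 with a median of 0.998 and 13 cells on each side. Within cells the log2 ratio was 1.00 ± 0.30, above 0 in all 26, with the bin of LIPC and ADAM10 on both sides. The median over bins was 1.76 for the broadly expressed and 0.722 for the tissue-restricted loci, against 0.793 over all used bins of the genome and 0.837 on chromosome 15.

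Read per bin, 10 of the 32 broadly expressed bins (31.2%) lay above the cell mean in at least 21 cells, against 6.09% of all used bins, and 0 lay below it in at least 21, against 31.4%. Of the tissue-restricted bins 3 were above (6.25%) and 16 below (33.3%), shares near the genome's. By locus, 9 of the 16 broadly expressed genes were above 1 in at least 21 cells and 0 below. Of the 17 tissue-restricted genes 2 were above, LIPC and MCTP2, and 7 below. No genome share was computed for loci of these sizes, so the counts by locus are descriptions only. Among windows of 1 Mb in the genome, 21.4% were above and 41.5% below in at least 21 cells. The genes were chosen as textbook examples with earlier results of these data known. Their expression in KBM7 was not measured here.

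**Figure D3:**
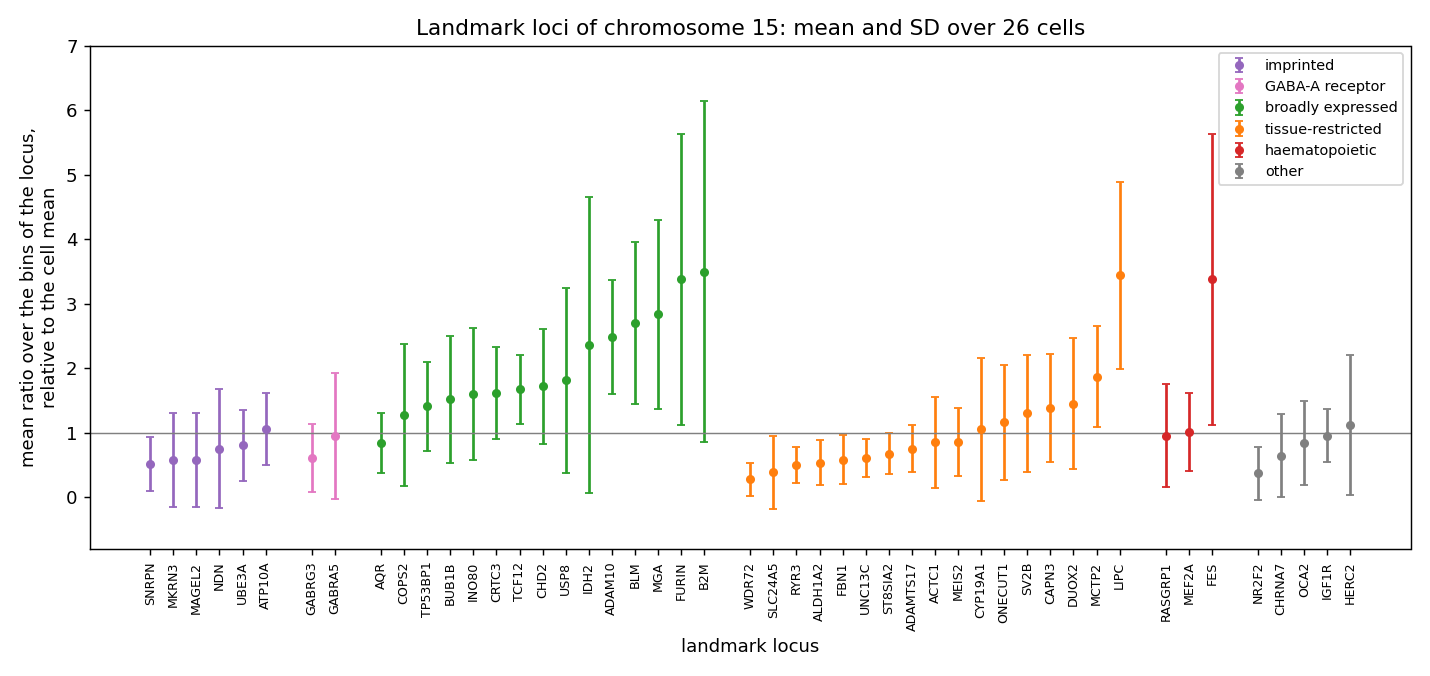
Landmark loci of chromosome 15 (48 of the 50), grouped by list and ordered by mean within it. The y axis is the mean ratio over the bins of a locus relative to the cell mean, points are means and bars SDs over 26 cells, which may reach below 0 where counts are few. Broadly expressed loci run from 0.841 at AQR to 3.50 at B2M, and tissue-restricted ones from 0.276 at WDR72 to 3.45 at LIPC.

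The number of genes went with the level over 17 intervals between landmark genes, as a description, chosen after the data were seen. The intervals do not cover all used bins. They leave out the bins before MKRN3, those between HERC2 and CHRNA7, and those from ADAM10 to the segment without values. The bins between that segment and IDH2 and those beyond ADAMTS17 are also left out. Protein-coding genes were counted from the order of the RefSeq table, which is of another build, so no coordinate was taken from it. Each interval includes the genes and loci at both its ends, so intervals that meet at a landmark share its bins. From BUB1B to B2M there were 91 genes, or 19.4 per Mb of used bins, and the level was 1.78 ± 0.446. From IDH2 to SV2B there were 14.6 per Mb at a level of 2.08 ± 0.598, above 1 in all 26 cells. From MCTP2 to NR2F2 there were 2 genes, both of them the landmarks, at a level of 0.776 ± 0.285. The MCTP2 locus, at 1.87, is part of this interval and of that from CHD2 to MCTP2, which was at 1.08 ± 0.316.

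Over the 17 intervals Pearson's r was 0.768 and Spearman's rho 0.569. Intervals share cells, expectation and some end loci, and are not replicates. How far the shared loci bear on r and rho was not tested. Within single cells rho had a median of 0.564, was above 0 in 25 of 26 cells, and was lowest in cell 22 at -0.08. Some intervals went against it. From CHRNA7 to ACTC1 there were 10.0 genes per Mb at a level of 0.861 ± 0.355, and from B2M to FBN1 6.25 per Mb at 0.735 ± 0.180. From TCF12 to ADAM10, with 4.74 genes per Mb, the level was 1.54 ± 0.330 and above 1 in all 26 cells. GC content and GATC density per bin were not analysed here, and their part was not tested.

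**Figure D4:**
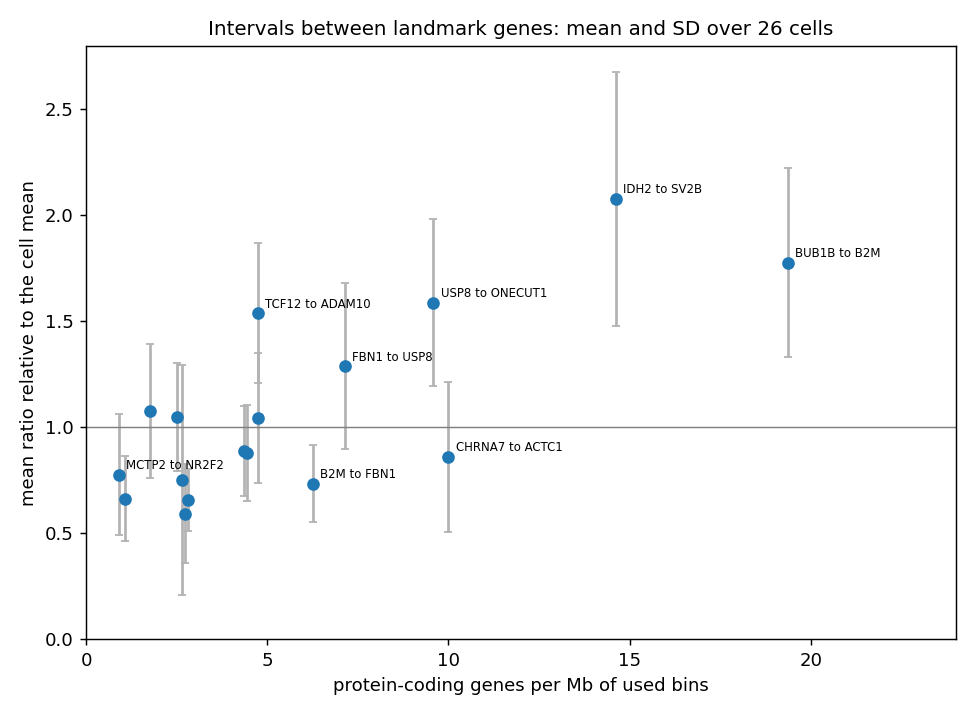
Level of 17 intervals between landmark genes against their protein-coding genes per Mb of used bins. Points are means and bars SDs over 26 cells. The IDH2 to SV2B and BUB1B to B2M intervals are at 14.6 and 19.4 genes per Mb, with levels of 2.08 and 1.78, and CHRNA7 to ACTC1 lies lower at 0.861.

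Set against the genome, chromosome 15 was not unusual in how many bins cells shared. It had 31 shared bins (6.09%), against 5.61% of used bins in the genome, and 143 bins positive in at most 20% of cells (28.1%), against 33.5%. Chromosomes 14 and 13 had 5.47% and 1.36% shared bins, and 33.3% and 45.4% positive in few cells. The 31 shared bins fell into 23 runs, of which 16 were single bins. Besides those already given, the 8 highest bins included 42800001 to 42900000 in 15q15 at 3.40 ± 2.25 (23 positive cells) and 90500001 to 90600000 in 15q26.1 at 3.30 ± 2.1 (24 positive cells). At the other end, the bin at 24800001 to 24900000 in the imprinted interval was lowest, at 0.138 ± 0.350 from 8 counts. The 2 bins at 53800001 to 54000000, in the WDR72 locus, averaged 0.192 ± 0.242 and held 27 counts. The other lowest bins were spread over the same low stretches of the imprinted interval, 15q21.1, 15q21.3 and 15q26.2, with means up to 0.234. Of 52 windows of 1 Mb on chromosome 15, 12 were above the cell mean in at least 21 cells (23.1%), against 21.4% in the genome, and 19 were below (36.5%), against 41.5%. By block, shared bins were 1 of 110 in 15q11-q13, 20 of 274 in 15q14-q22 and 10 of 125 at the distal end. The one in 15q11-q13 was at 22900001 to 23000000, on the centromere side, at 1.93 ± 1.14 and positive in 21 cells.

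Cells followed the same profile to different degrees. Over the 52 windows, the Spearman correlation of a cell with the mean of the other cells had a median of 0.750. It was highest in cell 1 at 0.908 and lowest in cell 22 at 0.286, with cell 21 next lowest at 0.469. Cells 21 and 1 have the lowest and highest total counts. Cell 22 has the second lowest, 21105, and the lowest share of used bins of the genome above 0, 34.3%. The part of depth in this range was not tested. Cell 22 was the lowest cell in 15q15, 15q21.1, 15q21.2, 15q21.3, 15q26.1, 15q26.2 and 15q26.3 and the highest in the imprinted interval.

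**Figure D5:**
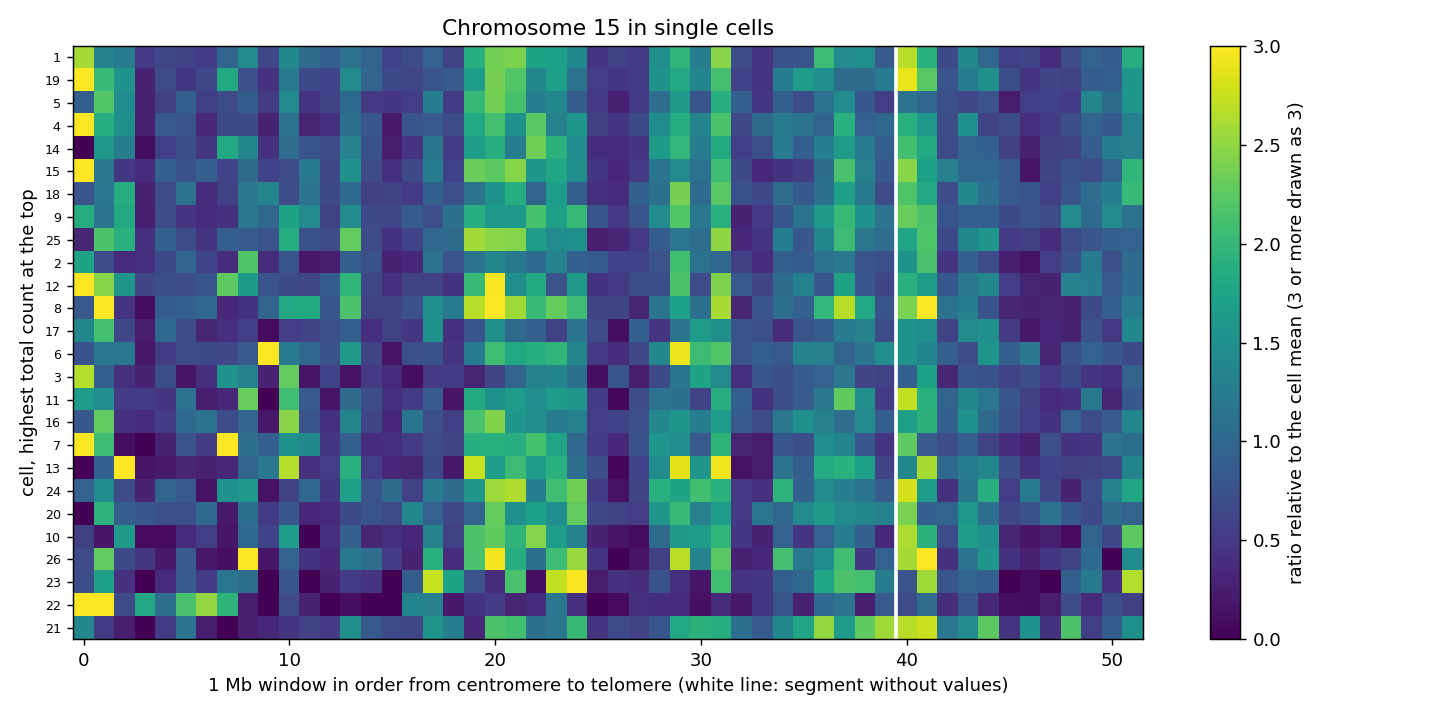
Ratio relative to the cell mean (colour, 3 or more drawn as 3) in 52 windows of 1 Mb of chromosome 15, in order from centromere to telomere, for 26 cells with the highest total count at the top. The white line marks the segment without values. High windows line up in most cells and cell 22 departs from them.

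Across cells, the distal end and 15q14-q22 went up and down together, with Pearson's r of 0.816 and Spearman's rho of 0.707 (n = 26 cells). Without the 2 cells farthest from the median of 15q14-q22 r was 0.640, without cell 22 0.712, and with every cell thinned to 20000 counts 0.792. 15q11-q13 against 15q14-q22 gave r = -0.10, or 0.12 without cell 22, and against the distal end r = -0.22, or -0.06 without cell 22, and dropping the 6 cells with the fewest counts gave 0.25 and 0.21, so the sign of neither is settled. Cells share 1 expectation per bin and 1 denominator, so these are descriptions. The summed counts of 15q15 varied between cells 8.44 times as much as counting alone gives, by the chi-square over its degrees of freedom, against 4.70 in the imprinted interval and 1.13 on the centromere side. This measure grows with the number of counts.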

How the data were processed

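The deposited table holds, per 100 kb bin and cell, a linear ratio that the authors computed, read as observed over expected signal from the table's name and from cell means near 1. The submitters' processing notes name cutadapt, Bowtie2 2.1.0 and the build hg19. The sources used here do not say how reads were counted, how bins were masked, how the expectation was built or whether PCR copies were told apart. Per the labels' protocols, DpnI fragments were amplified with 21 extension steps.

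Columns and samples were paired through the cell number both carry. Within a bin, ratios of all cells are whole multiples of a step after scaling each cell, which gives whole counts (largest distance from a whole number 2.42e-13, tolerance 0.001) and a relative expectation. For bins with counts in few cells these are the smallest numbers that give the ratios. Band limits and gene positions are textbook values for hg19. On counts simulated from the recovered expectations with known levels in 12 bands, counts were recovered exactly in 99.99% of 26285 bins and levels within 6.27%. The simulated cells differed by depth and counting error only. This checks the calculation and cannot show that the counts recovered from the real ratios are right.

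Regions were named by position, as blocks and bands, the 8 highest and 8 lowest bins of adequate expectation (merged where adjacent), runs of at least 3 shared bins, the 5 longest runs of bins positive in few cells, and the landmark loci. A side needs 21 of 26 cells. Values of 2 landmark loci are not reported here by name. Members, landmarks and lists were chosen with earlier results of these data known. Alternatives covered bin filters, capping at the 99th percentile, summed counts, log2 values with 0.1 added, leaving out cells (for bands and loci, this and the filter on low expectation were chosen after the data were seen), thinning to 20000 counts and the value that defines positive. Scripts used matplotlib 3.10.9, scipy 1.17.1, pandas 2.3.3 and numpy 2.4.6 under Python 3.11.15.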

Additional observations from a re-analysis of the deposited data

How the results depend on the processing

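Under the alternatives 102 values were computed again, and 96 stayed within 1 SD between cells (levels and log2 ratios) or within 1.5 times (counts). That criterion is wide for 15q11-q13, whose level ran from 0.744 to 1.04 and lay below 1 in 24 or 25 cells with capped ratios (0.834), summed counts (0.824), log2 values (0.744), without bins of low expectation (0.787) or without the centromere side (0.809). The log2 ratio of 15q14-q22 over 15q11-q13 ran from 0.15 without the 6 cells with the fewest counts to 0.69 on log2 values, and that of the distal end over 15q11-q13 from 0.0056 to 0.61 in the same settings. The level of 15q11-q13 turned to above 1 without the 6 cells with the fewest counts (1.04), without cell 10 alone (1.0015) and without cell 21 alone (1.0003). No other level or ratio compared under the alternatives changed its side of 1 or of 0. The imprinted interval over the rest of the chromosome ran from -1.0 to -0.71, 15q15 over the rest from 0.77 to 1.10, the broadly expressed over the tissue-restricted loci from 0.99 to 1.26, and the terminal 5 Mb over the rest of the distal end from -0.31 to -0.17, where 18 or 19 cells were below 0 with summed counts, thinned counts or log2 values, fewer than 21.

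With a bin called positive from 0.5, there were 100 shared bins and 28 positive in few cells. Called from 2, these were 3 and 376. Dropping the same 6 cells gave 50 shared bins, and thinned counts gave 85 bins positive in few cells. For the value that defines positive and for fewer counts per cell, these follow from the setting itself, and for the dropped cells the cause was not tested. Shared bins were then 19.6%, 0.589% and 9.82% of chromosome 15, against 17.8%, 0.460% and 9.18% of the genome, at 0.5, at 2 and without the 6 cells. Bins positive in few cells were 5.50%, 73.9% and 16.7% of chromosome 15, against 6.86%, 75.1% and 19.6% of the genome, at 0.5, at 2 and with thinned counts. Leaving out each cell in turn, chosen after the data were seen, gave 32 to 40 shared bins and 148 to 160 bins positive in few cells. The limit for a shared bin is then 20 of 25 cells. The level of chromosome 15 stayed between 1.05 and 1.08, and the log2 ratio of 15q14-q22 over 15q11-q13 between 0.18 and 0.30, with the highest value without cell 22. A locus of 1 bin can rest on as few as 27 counts in all cells, so single cells there carry a large counting error. No paired analysis was possible because the 26 cells are 1 group.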
